A study of Mus musculus with 6 samples.

Results

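The 10 genes Il1b, Il1rn, Il1r2, Il1rap, Tnf, Cxcl2, Ccl3, Ccl4, Ccl6 and Osm, chosen by name as inflammatory cytokines, chemokines and regulators of IL-1 made by neutrophils, were followed in bone marrow neutrophils of WT and LRP5-null mice. All 10 were among the 9775 genes tested, of 52636 listed. Neutrophils were taken from C57BL/6N mice 10 weeks of age, with 3 WT libraries and 3 of the genotype LRP5f/f/Lyz2Cre+, called LRP5-null. In these mice both copies of Lrp5 are floxed and Cre is driven by Lyz2, a gene of the myeloid lineage, so deletion is not limited to neutrophils. The labels do not say whether the WT mice carried floxed alleles or Cre, nor whether each library came from its own mouse, so p-values measure the spread between these libraries. The labels name Percoll isolation and an mRNA kit, and the methods name a sort on CD11b and Ly6G and a stranded total RNA kit. Values are TPM as the authors deposited them, a level of transcript corrected for its length and scaled to the same total in every library. Libraries were compared with limma, a linear model fitted to all genes tested, and a gene is said to be called where its p, adjusted over all of them, was under 0.05.

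Several facts of the libraries touch each result that follows. The Lrp5 transcript did not fall with the deletion the labels name: it was 1.12, 1.31 and 1.42 TPM in WT and 1.68, 1.77 and 2.07 TPM in LRP5-null libraries (0.31 higher on the log2 scale, limma adjusted p = 0.136), so it gives the labels no support. Its level was near 1 TPM, the minimum mean for testing. Values per gene do not separate the floxed part from the rest of the transcript, so they cannot decide whether it was deleted. Lyz2, the gene that carries Cre in the LRP5-null mice, was 24797 to 26791 TPM in WT and 13360 to 14027 TPM in LRP5-null libraries and fell by 0.91 on the log2 scale (limma adjusted p = 0.00351, the smallest of all genes tested), so the gene of the Cre insertion did differ between the labels. Each direction below is that of the labels. Ribosomal RNA took 2.69% to 2.98% of reads in LRP5-null libraries. Its share was 3.30% for WT replicate 3, but 1.20% and 1.30% for the other WT libraries. Reads in introns were 7.78% to 9.0% in WT and 10.62% to 11.23% in LRP5-null libraries. Of 13 markers of immature neutrophils, 12 were higher in the LRP5-null mean, where 5752 of all 9775 genes tested were higher, and 6 had an unadjusted p under 0.05, beside 23.5% of all genes. Their median log2 fold change was 0.20, and that of all genes 0.04. Of 16 markers of mature neutrophils, 13 were lower, where 4023 of all genes were lower, 6 had an unadjusted p under 0.05, and the median was -0.16. No marker of either list had an adjusted p under 0.05 in limma. Monocyte and macrophage markers summed to 624 to 789 TPM in WT and 696 to 759 TPM in LRP5-null libraries, most of it Ly6c2, at a mean of 608 TPM. Of 9 of these markers tested, 7 were higher and 3 had an unadjusted p under 0.05: C1qb at 150%, Adgre1 at 131% and C1qa at 123% of the WT mean, each without overlap between the labels and none called. The share that these differences have in the values of the 10 genes was not tested. In bulk RNA, fewer cells of a type and less RNA per cell cannot be told apart.

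IL-1β is made as an inactive precursor that is cut by caspase-1 inside the cell. Once released, it binds the receptor IL1R1, which then recruits the accessory protein IL1RAP to signal. The pathway is restrained at the surface by IL1RN, the receptor antagonist, which occupies IL1R1 without signalling, and by IL1R2, a decoy receptor that binds IL-1β and IL1RAP but has no signalling tail. TNF and oncostatin M, the product of Osm, are cytokines that act on endothelium, fibroblasts and leukocytes. CXCL2 attracts neutrophils through CXCR2, and CCL3, CCL4 and CCL6 attract monocytes and other leukocytes through CC chemokine receptors. Neutrophils are a source of all of these mediators. The mRNAs of several are short-lived because AU-rich elements in their 3′ untranslated regions are bound by decay factors such as tristetraprolin (Zfp36).

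The mRNAs of Il1b and Ccl6 were by far the most abundant of the 10 in every library. On the scale of TPM, which is corrected for transcript length, the mean of Il1b over all 6 libraries held rank 23 of the genes listed, and that of Ccl6 rank 32. Il1r2, Osm and Cxcl2 followed, then Il1rn, Ccl3, Ccl4, Tnf and Il1rap. In WT libraries the ranges of Il1r2 and Osm overlapped, as did those of Osm and Cxcl2, and the other neighbours in this order were apart. In LRP5-null libraries all neighbours were apart, and Osm was 1.51 times Cxcl2, where in WT the ratio of their means was 0.955.

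**Figure D1:**
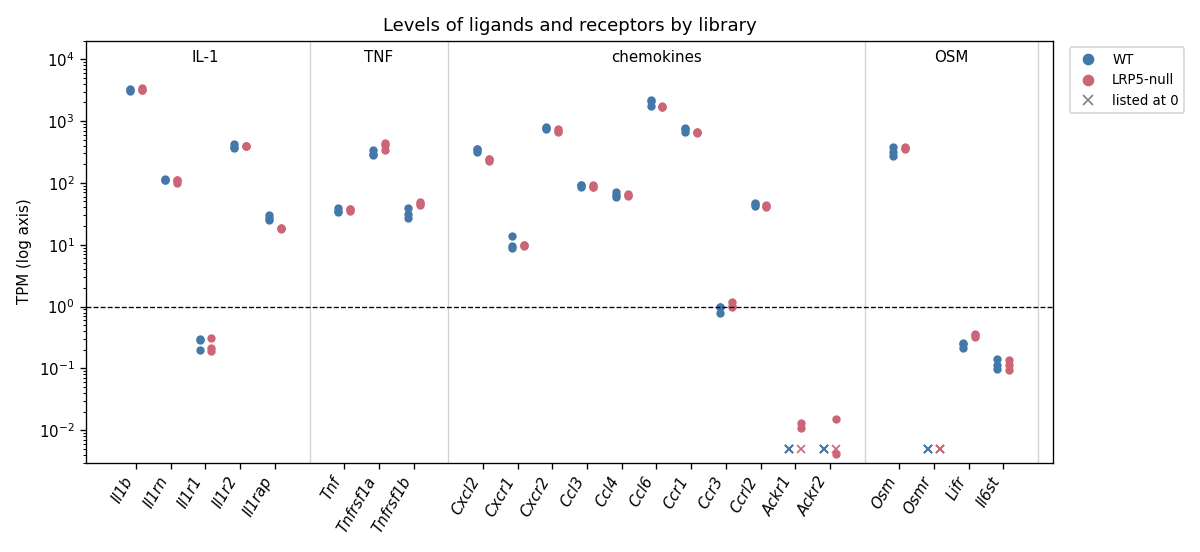
Levels of the 10 genes and of receptors for their products, in TPM on a log axis, with 1 point per library (blue, WT; red, LRP5-null), crosses for values listed at 0 and a dashed line at 1 TPM, the minimum mean for testing. Il1b and Ccl6 lie highest, and Il1r1 and the OSM receptor genes lie below the line in every library.

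Of the 10 genes, 2 had an adjusted p under 0.05 in limma and both fell: Il1rap by 0.54 and Cxcl2 by 0.48 on the log2(TPM + 1) scale. Over all genes tested, 52 were called (0.532%), and 26 were called lower (0.266%). The 10 genes were named with earlier results of these data known. Their share beside that of all genes is therefore a description and not a test. At an unadjusted p under 0.05 there were 3 of the 10, all lower, against 23.5% of all genes. The libraries of the 2 labels did not overlap for 2 of the 10 genes, again Il1rap and Cxcl2, against 29.7% of all genes, which is above the share among the 10. The median log2 fold change of the 10 was -0.03, beside 0.04 for all genes tested.

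**Figure D2:**
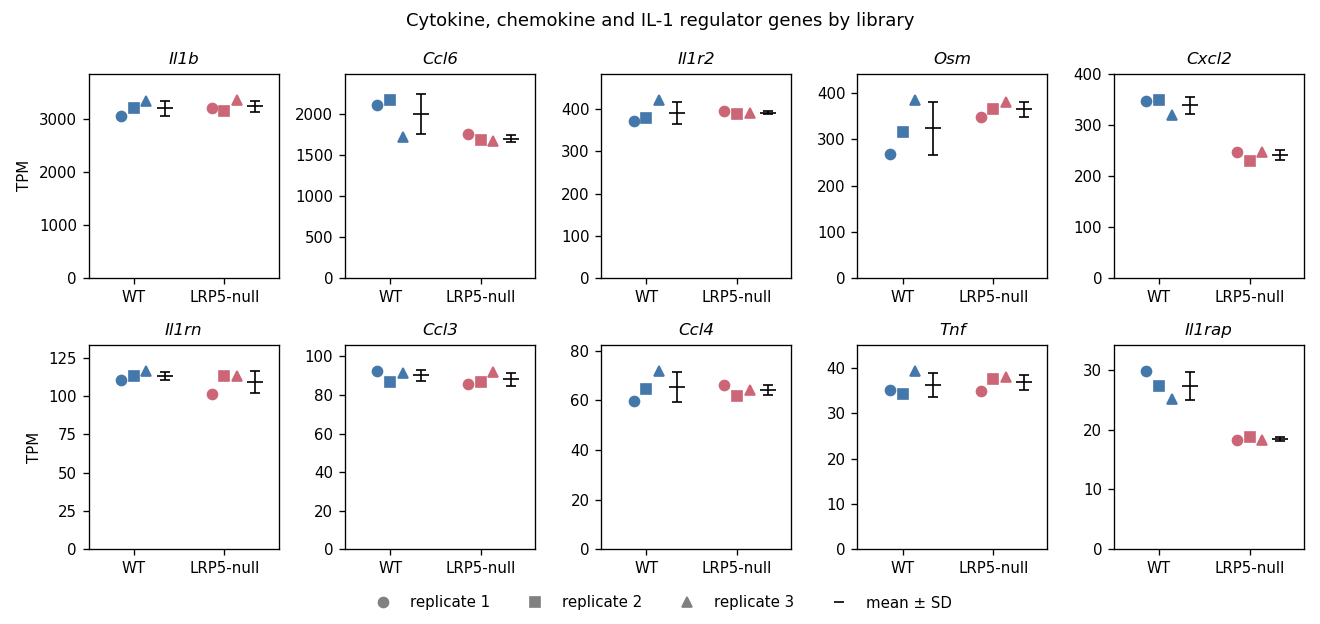
TPM of each gene in every library, with axes from 0, ordered by mean level; symbols mark replicates 1 to 3 of each label and black bars the mean ± SD of 3 libraries. For Cxcl2 and Il1rap each LRP5-null library lies below each WT library, for Ccl6 WT replicate 3 lies among the LRP5-null libraries, and for Il1b the labels overlap.

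Cxcl2, on chromosome 5 from 91332897 to 91334935 (plus strand, NCBIM37), encodes the CXCR2 ligand that neutrophils themselves release to draw in more neutrophils. It was 347.6, 348.4 and 319.6 TPM in WT replicates 1 to 3 and 247.5, 230.0 and 247.4 TPM in LRP5-null replicates 1 to 3. The lowest WT library, replicate 3, was still above the highest LRP5-null library. The means were 338.5 ± 16.4 and 241.6 ± 10.1 TPM (SD, n = 3 each), 28.6% below WT, with a log2 fold change of -0.48 (standard error 0.067, 95% interval -0.64 to -0.33, limma adjusted p = 0.0371). The RefSeq promoter of Cxcl2 is shown because the gene was called. It runs over chr5:90903649-90903948 on the plus strand of GRCm38.p6, around the start of the gene, and capitals mark a match to the NF-kB consensus that begins 97 bases before the start.
Cxcl2 promoter: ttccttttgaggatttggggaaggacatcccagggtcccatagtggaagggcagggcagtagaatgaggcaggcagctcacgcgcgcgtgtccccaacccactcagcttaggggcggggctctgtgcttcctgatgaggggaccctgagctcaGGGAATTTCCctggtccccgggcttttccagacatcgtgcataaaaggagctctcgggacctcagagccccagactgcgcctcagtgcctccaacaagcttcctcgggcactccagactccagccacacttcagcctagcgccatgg
The NF-kB consensus was searched on both strands and occurred in 5.80% of 32851 promoters of the same length, and in 1 of the 8 genes with an entry.

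The 3′ untranslated region of Cxcl2 held 11 copies of the pentamer ATTTA, searched on the mRNA strand with overlaps counted, and 6 of these fell within 100 bases. Among 18229 genes with a region of at least 100 bases, 7.56% held a window of 100 bases with at least 3. The densest 30 bases of 4 of the genes are shown, because such elements are a feature shared by their mRNAs that the choice by name did not use. They were read from NCBIM37 with the GENCODE M1 annotation, 5′ to 3′ on the mRNA strand with T for U, and capitals mark the pentamers.
Cxcl2, chr5:91334354-91334383: ATTTATTTAtctatgtATTTATTTATTTAt
Tnf, chr17:35336621-35336650, minus strand: ATTTAttATTTATTTAttATTTATTTAttt
Il1b, chr2:129190531-129190560, minus strand: ATTTATTTAtgtATTTAttgattggttgat
Ccl3, chr11:83461567-83461596, minus strand: ATTTAATTTAatcctattggtttaatacta
Tnf had 8 pentamers in all with 7 of them within 100 bases, Osm had 6 with 5 within 100, Ccl3 had 5, all within 100, and Il1b had 4, all within 100. Il1rap had 8 spread over 2676 bases with no more than 2 in any 100, Ccl6 had 4, Ccl4 had 2 and Il1rn had 0. The annotated region of Il1r2 is 12 bases long and was not scanned. Of the 5 genes with the densest clusters, Cxcl2 was lower by the test and Tnf, Ccl3, Il1b and Osm were not called. A match of letters is not evidence that a factor was bound.

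Il1rap, on chromosome 16 from 26581790 to 26730203 (plus strand, NCBIM37), encodes the accessory chain that IL1R1 needs to signal. It was the least abundant of the 10, at 29.7, 27.3 and 25.1 TPM in WT replicates 1 to 3 and 18.3, 18.8 and 18.2 TPM in LRP5-null replicates 1 to 3. The LRP5-null libraries lay close together and below each WT library, with WT replicate 3 again the nearest. The means were 27.4 ± 2.33 and 18.4 ± 0.28 TPM (SD, n = 3 each), 32.6% below WT, with a log2 fold change of -0.54 (standard error 0.081, 95% interval -0.73 to -0.35, limma adjusted p = 0.0466). The values are per gene, so membrane and soluble forms of IL1RAP are not separated. Its promoter, the other of the called genes, is shown for contrast with Cxcl2 (chr16:26581455-26581754, plus strand, GRCm38.p6).
Il1rap promoter: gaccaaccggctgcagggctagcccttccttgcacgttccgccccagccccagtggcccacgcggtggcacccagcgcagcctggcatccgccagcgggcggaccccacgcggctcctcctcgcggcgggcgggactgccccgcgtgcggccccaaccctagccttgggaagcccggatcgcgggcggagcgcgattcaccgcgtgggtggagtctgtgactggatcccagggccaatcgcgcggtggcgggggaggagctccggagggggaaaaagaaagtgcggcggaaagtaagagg
In these 300 bases, 72.0% G or C against 60.7% in Cxcl2, neither the NF-kB consensus, nor TGANTCA (the AP-1 consensus, in 7.81% of promoters), nor TATAAA (13.62%) was found on either strand. TATAAA was present 31 bases before the start of Il1b and 29 before that of Tnf, both on the strand of the gene. On the opposite strand, it was present 15 bases after the start in 1 of the promoters of Il1rn. TGANTCA was present in another promoter of Il1rn.

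The other 3 genes of the IL-1 group overlapped between the labels. Il1b, on chromosome 2 from 129190306 to 129196875 (minus strand), was 3067, 3210 and 3356 TPM in WT and 3224, 3161 and 3363 TPM in LRP5-null libraries. The means of 3211 ± 145 and 3249 ± 103 TPM differed by 0.02 on the log2 scale, with an interval of -0.12 to 0.16 (limma adjusted p = 0.879). Il1rn, on the same chromosome from 24192373 to 24207014 (plus strand), was 110.6, 113.1 and 116.0 TPM in WT and 101.1, 113.3 and 113.1 TPM in LRP5-null libraries. LRP5-null replicate 1 was the lowest of the 6 libraries and the other values lay together, and the log2 fold change was -0.05 (interval -0.22 to 0.11, limma adjusted p = 0.668). Il1r2, on chromosome 1 from 40141613 to 40182064 (plus strand), was 372.4, 379.3 and 421.1 TPM in WT and 395.1, 388.9 and 391.9 TPM in LRP5-null libraries. All 3 LRP5-null values fell inside the WT range, and the interval of the log2 fold change was -0.15 to 0.16 (limma adjusted p = 0.968).

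The balance of ligand, antagonist, decoy and accessory chain was also followed as ratios within each library. Il1b was 28.3 ± 0.61 times Il1rn in WT and 29.8 ± 2.01 times in LRP5-null libraries (SD, n = 3 each; exact permutation test, two-sided, p = 0.3). The ratio of Il1r2 to Il1rap, decoy over accessory chain, was 12.5, 13.9 and 16.8 in WT and 21.5, 20.7 and 21.5 in LRP5-null libraries. The labels were apart, with means of 14.4 ± 2.18 and 21.3 ± 0.45 and a log2 difference of 0.57 (two-sided exact permutation test, p = 0.1, which is the lowest that 3 libraries against 3 can reach). This ratio contains Il1rap and restates its difference against a gene whose labels overlapped.

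Of the CC chemokines, Ccl6 had the lowest LRP5-null mean relative to WT. Ccl6, Ccl3 and Ccl4 lie within 76.8 kb on chromosome 11 of NCBIM37. Ccl6 (83401384 to 83406589, minus strand) was 2105, 2167 and 1720 TPM in WT and 1752, 1682 and 1668 TPM in LRP5-null libraries. WT replicate 3 lay between the LRP5-null libraries, and replicates 1 and 2 lay above all of them. The means were 1998 ± 242 and 1700 ± 44.9 TPM (SD, n = 3 each), with a log2 fold change of -0.23 (standard error 0.093, interval -0.44 to -0.0081) that did not pass adjustment (limma adjusted p = 0.202). Ccl3 (83461346 to 83462857, minus strand), a ligand of CCR1, was 92.1, 86.7 and 91.5 TPM in WT and 85.9, 86.5 and 92.0 TPM in LRP5-null libraries. Ccl4 (83476086 to 83478185, plus strand), a chemokine closely related to CCL3, was 59.8, 64.7 and 71.6 TPM in WT and 66.0, 61.9 and 64.2 TPM in LRP5-null libraries. Both overlapped, and each differed by -0.03 on the log2 scale (limma adjusted p = 0.803 and 0.871). The ratio of Ccl3 to Ccl4 was 1.39 ± 0.14 in WT and 1.38 ± 0.069 in LRP5-null libraries (SD, n = 3 each; exact permutation test, two-sided, p = 1). The neighbours therefore had unequal estimates, with Ccl6 54.8 kb from Ccl3 and Ccl3 13.2 kb from Ccl4, but the difference between them was not tested.

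Tnf, on chromosome 17 from 35336326 to 35338952 (minus strand), was 35.3, 34.3 and 39.2 TPM in WT and 35.0, 37.5 and 37.9 TPM in LRP5-null libraries. The labels overlapped and the log2 fold change was 0.02 (interval -0.16 to 0.21, limma adjusted p = 0.884). Osm, on chromosome 11 from 4136423 to 4141029 (plus strand), had the widest spread of the 10 among WT libraries relative to its mean (coefficient of variation 17.9%), at 269, 316 and 384 TPM in WT and 349, 365 and 381 TPM in LRP5-null libraries. The lowest values were WT replicates 1 and 2 and the highest was WT replicate 3. Its log2 fold change of 0.19 had an interval of -0.10 to 0.48 (limma adjusted p = 0.387).

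**Figure D3:**
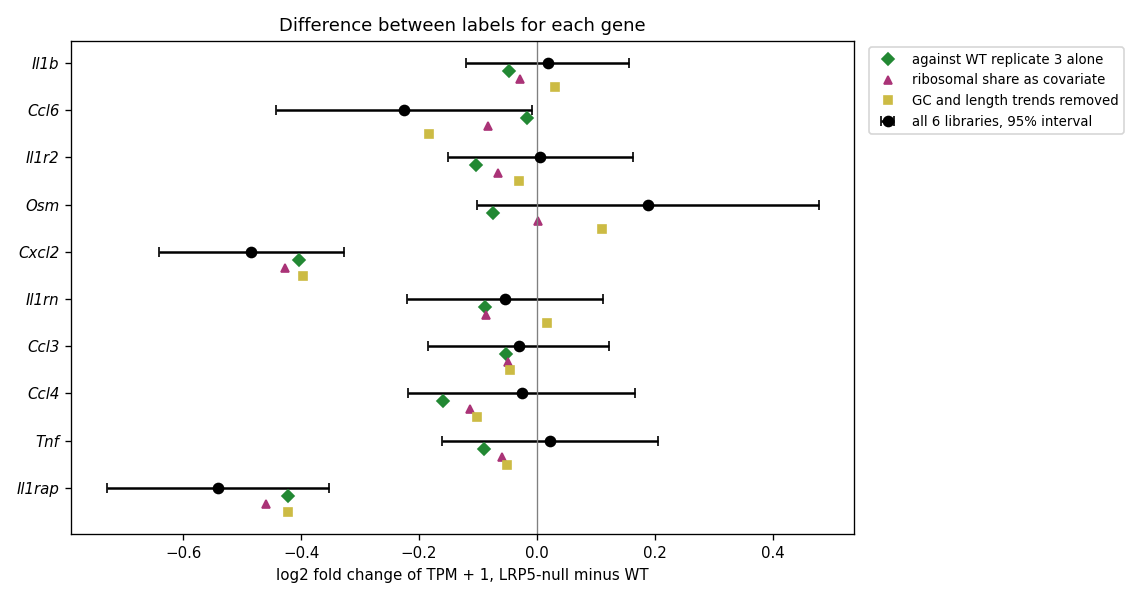
Log2 fold change of TPM + 1, LRP5-null minus WT, for each gene, with the 95% interval of the fit on all 6 libraries (black) and the estimates against WT replicate 3 alone (green), with the ribosomal share as a covariate (purple) and after removal of GC and length trends (yellow). Cxcl2 and Il1rap stay below -0.39 in all 4, and Ccl6 and Osm come near 0 against WT replicate 3 alone, at -0.02 and -0.08.

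WT replicate 3, the WT library with a ribosomal share like that of the LRP5-null libraries, was the WT value nearest to the LRP5-null mean for Cxcl2, Il1rap and Ccl6. Against this library alone the log2 fold change was -0.40 for Cxcl2 and -0.42 for Il1rap, without a call (limma adjusted p = 0.155 and 0.152), and -0.02 for Ccl6 and -0.08 for Osm (limma adjusted p = 0.893 and 0.613). With the ribosomal share as a covariate Cxcl2 was -0.43, Il1rap -0.46, Ccl6 -0.08 and Osm 0.0018. Without WT replicate 3, 4 of the 10 genes were called, with Ccl6 at -0.33 (adjusted p = 0.0140) and Osm at 0.32 (adjusted p = 0.0443) joining Cxcl2 and Il1rap, and 19.6% of all genes were called in that fit. WT replicates 1 and 2 form the only libraries of low ribosomal share, so that share and the label cannot be told apart there. Cxcl2 and Il1rap were lower in each of 18 alternative fits, at -0.56 to -0.40 and -0.61 to -0.42, but were called in only 7 and 6 of these. For genes without overlap between the labels, leaving libraries out cannot reverse the direction. Changes of the filter, variance model or replicate block alone left the estimate as it was. The direction in such fits was fixed in advance and adds no support. Leaving out any library other than WT replicate 3 ended both calls, with adjusted p up to 0.178 for Cxcl2 and 0.218 for Il1rap in limma.

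**Figure D4:**
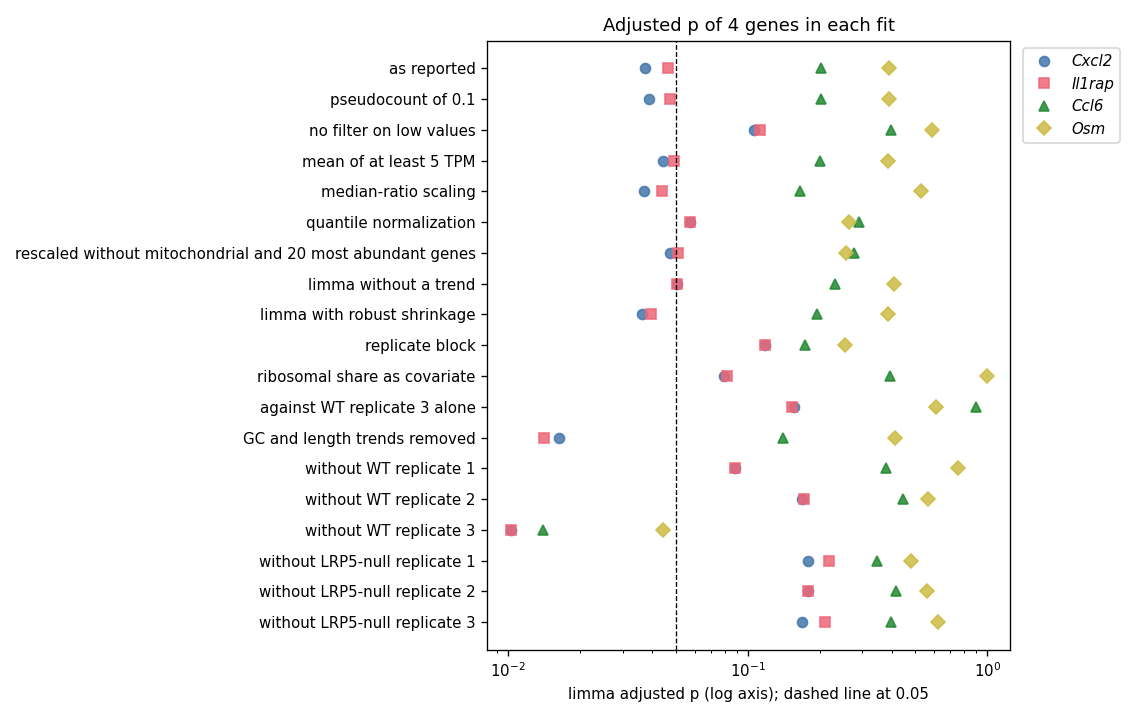
Adjusted p from limma (log axis, dashed line at 0.05) for Cxcl2, Il1rap, Ccl6 and Osm in the fit as reported and in each of 18 alternatives. Cxcl2 and Il1rap lie near the line in most fits and at 0.0103 without WT replicate 3, where Ccl6 and Osm are also left of it.

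The receptors for these ligands were unevenly present, and the 6 tested of 14 had a median log2 fold change of -0.08. Cxcr2, the receptor of CXCL2, was the most abundant, at 776 ± 29.5 TPM in WT and 701 ± 32.7 TPM in LRP5-null libraries (SD, n = 3 each). Its log2 fold change of -0.15 missed adjustment (limma adjusted p = 0.217). Ccr1, a receptor of CCL3 and CCL6, was 723 ± 55.2 and 647 ± 13.9 TPM. Il1r1, the signalling receptor of IL-1β, was 0.26 ± 0.059 TPM in WT and 0.24 ± 0.063 TPM in LRP5-null libraries, under the minimum for testing, far below the TPM of the decoy Il1r2. Osmr was listed at 0 in all 6 libraries, and Lifr and Il6st had means of 0.29 and 0.12 TPM. These last 5 genes were named after their values were seen. The TNF receptors had the largest positive estimates among the 6 receptors tested: Tnfrsf1b was 26.9, 31.1 and 39.0 TPM in WT and 44.3, 45.5 and 49.8 TPM in LRP5-null libraries, and Tnfrsf1a 292, 286 and 341 TPM against 417, 442 and 335 TPM. Their log2 fold changes of 0.53 and 0.37 did not pass adjustment (limma adjusted p = 0.104 and 0.147), and in both WT replicate 3 was the WT library nearest to the LRP5-null mean.

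No gene of 8 surrounding lists was called. Of 166 symbols in these lists, 89 genes were tested and 22 had an unadjusted p under 0.05, 14 higher and 8 lower, a share of 24.7% beside 23.5% of all genes. List medians are given beside the 0.04 of all genes. Of 19 symbols listed for the IL-1 family, 15 were found and 7 genes were tested, with a median log2 fold change of -0.07. Il1f9, which encodes IL-36γ, was the most abundant at a mean of 492 TPM, and differed by -0.18 on the log2 scale (limma adjusted p = 0.154), and Il1rl1, the IL-33 receptor, was 2.25 TPM on average with -0.19 (adjusted p = 0.208). Of 19 genes tested for IL-1 maturation and signalling, 4 had an unadjusted p under 0.05, 2 in each direction, and the median was -0.04. Irak1, a kinase of the IL-1 receptor complex, was 13.1, 14.8 and 16.4 TPM in WT and 19.9, 21.1 and 19.8 TPM in LRP5-null libraries, without overlap and 0.44 higher on the log2 scale, which missed adjustment (limma adjusted p = 0.0855). Casp1, the enzyme that matures IL-1β, was -0.19 and Casp4 -0.22 (limma adjusted p = 0.196 and 0.208), Nlrp1b was 0.24 (adjusted p = 0.162), and the adaptor Myd88, the most abundant, was 0.0075.

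Few other chemokine or cytokine genes were above the minimum. Of 32 other chemokines, 6 were tested and Ccl9 was the highest at a mean of 6.82 TPM, with a list median of -0.10. Ccl2, a ligand for monocytes, was 3.08, 2.96 and 2.54 TPM in WT and 2.14, 1.83 and 2.05 TPM in LRP5-null libraries, and differed by -0.36 on the log2 scale (limma adjusted p = 0.106). Cxcl3, a CXCR2 ligand related to Cxcl2, was 1.42 to 2.14 TPM in WT and 0.88 to 1.37 TPM in LRP5-null libraries, with -0.35 (adjusted p = 0.176). Neither overlapped between the labels, and neither passed adjustment. Of 25 other cytokines, 8 were tested with a median of 0.06, Il16 was the highest at 188 TPM, and Csf1, the macrophage growth factor, had the smallest p and differed by 0.40 on the log2 scale (limma adjusted p = 0.0778). Of 19 genes of the TNF family and TNF shedding, 6 were tested and none had an unadjusted p under 0.05, with a median of 0.07 and Ltb the highest at 81.6 TPM.

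Of 15 regulators of cytokine mRNA decay, 14 were tested, with a median of -0.08 and 2 in each direction at an unadjusted p under 0.05. Zfp36, whose product binds AU-rich elements, was 439, 433 and 524 TPM in WT and 496, 520 and 544 TPM in LRP5-null libraries, 0.16 higher on the log2 scale (limma adjusted p = 0.299). Its relatives had estimates of opposite sign that did not pass adjustment, Zfp36l2 at 0.26 (adjusted p = 0.124) and Zfp36l1 at -0.58 (adjusted p = 0.125). Zc3h12a, the ribonuclease regnase-1, was 0.28 and Tial1 -0.22 (limma adjusted p = 0.203 and 0.206). All 23 transcription regulators of these cytokines were tested. At an unadjusted p under 0.05, 7 were higher and 0 lower, beside 14.4% and 9.12% of all genes, none passed adjustment, and the median was 0.06. Tnfaip3 and Bcl3, an inhibitor and a coregulator of NF-kB, were 0.36 and 0.38, and Junb and Atf3 were each 0.25 on the log2 scale (limma adjusted p between 0.104 and 0.149). Fos was the highest of the list at a mean of 850 TPM, with 0.04.

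**Figure D5:**
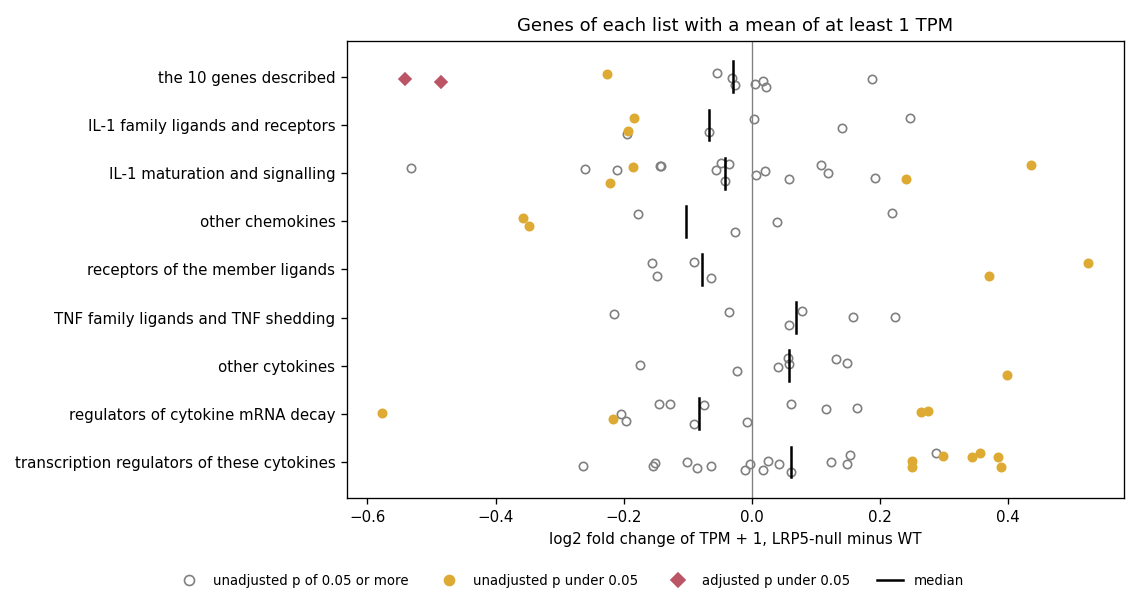
Log2 fold change of TPM + 1, LRP5-null minus WT, of each gene tested in the 10 genes and the 8 lists (grey rings, unadjusted p of 0.05 or more; yellow, unadjusted p under 0.05; red diamonds, adjusted p under 0.05; black bars, list medians). Red diamonds occur only for Il1rap and Cxcl2, and the list medians lie between -0.10 and 0.07.

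Across the 6 libraries, Il1rap and Cxcl2 had a Pearson r of 0.97 on the log2 scale, and Ccl6 had r = 0.83 with each. These values pool both labels. Il1rap and Cxcl2 were each lower in LRP5-null libraries without overlap, so their r largely restates that difference. Osm and Ccl6 ran opposite (r = -0.87), and Il1r2 went with Ccl4 (r = 0.91). The genes whose log2 values were most like those of Il1b were Rab3gap1 and Mtor (r = 0.993 each), Hp1bp3, Pcsk7 and Gpr108 (r = 0.984 to 0.988). These 5 are the highest of 259 genes with r of at least 0.9 over 6 libraries, and the libraries share a label and a ribosomal share, so the values describe these libraries.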

How the data were processed

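Values for 3 libraries of each label were deposited as TPM, which the authors scaled to the same total in every library after correction for gene length. The methods name alignment to mm9 and DESeq2, and the tool that gave the TPM is not given in the sources used here. The authors also deposited counts of reads per library (249841492 to 340580330 in all) and shares of reads in percent.

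The 9775 genes whose mean reached 1 TPM were compared on the log2(TPM + 1) scale by limma (version 3.58.1, R 4.3.3), with a trend of variance on level and adjustment by Benjamini-Hochberg, LRP5-null minus WT, without covariates. TPM keeps no depth, fold changes on this scale understate those of low genes, and single values have no counting error here. The members, lists and alternatives were chosen with earlier results of these data known. The named genes were all 10 members, from each list the most abundant, any called and up to 4 of the smallest p under 0.05, and the 5 most like Il1b. An item of the receptor list is not reported here. Ratios used an exact permutation test. In 18 alternative fits the pseudocount, filter, scaling, variance model, covariates or libraries were changed 1 at a time. The fit was checked on data with known differences. Promoters are from RefSeq (GRCm38.p6, 8 of 10 members), and positions are from GENCODE M1 (NCBIM37). Lists of markers of other cells gave summed levels, in TPM, of 4.90 to 6.22 in WT and 5.05 to 5.59 in LRP5-null libraries for basophils and mast cells, 147 to 172 and 150 to 158 for eosinophils (Prg2 alone called, 0.91 higher on the log2 scale, limma adjusted p = 0.0341), 12.1 to 13.1 and 11.5 to 12.5 for B cells, 2.57 to 3.61 and 2.39 to 3.37 for T and NK cells, 3.74 to 5.38 and 5.75 to 6.65 for platelets and 12.4 to 16.5 and 12.4 to 14.7 for erythroid cells. Most of the eosinophil sum was Ear2, at a mean of 146 TPM. Prg2 was near the minimum for testing, at 0.85 to 1.16 TPM in WT and 2.33 to 3.13 TPM in LRP5-null libraries. Neutrophil markers summed to 333797 to 383070 and 363286 to 387082.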

Additional observations from a re-analysis of the deposited data

Results flagged for a closer look

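The share of reads in introns, which no comparison of expression used, was higher in each LRP5-null library (10.62% to 11.23%, mean 10.9% ± 0.31, SD, n = 3) than in each WT library (7.78% to 9.0%, mean 8.46% ± 0.62, SD, n = 3), with an exact permutation test, two-sided, giving p = 0.1, the lowest this design can reach.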

How the results depend on the processing

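Il1rap and Cxcl2 kept their direction in all 18 alternatives, which was fixed in advance where only libraries, filter, variance model or replicate block changed. Ccl6 also kept its direction, at -0.33 to -0.02. The number of the 10 genes called was 0 without a filter, with quantile normalization, without a trend, with the replicate block, with the ribosomal covariate and against WT replicate 3 alone, 1 (Cxcl2) after rescaling without mitochondrial and the 20 most abundant genes, and 0 to 4 with a library left out. The cause was not tested. The count over all genes was 3 without a filter (23220 genes), 29 at a mean of at least 5 TPM, 83 with median-ratio scaling, 96 after rescaling, 4 with the replicate block, 6 with the ribosomal covariate, 6 against WT replicate 3 alone, 425 after removal of GC and length trends (8769 genes) and 2 to 1920 with a library left out. Of called genes, 50.0% were higher as reported, 34.5% at 5 TPM, 36.1% with median-ratio scaling, 71.9% after rescaling and 36.9% after GC and length removal, which was chosen after the data had been seen. The median of the 10 was -0.10 with median-ratio scaling and -0.089 against WT replicate 3 alone. That of all genes also moved down in these fits, from 0.04 as reported to -0.022 and -0.0065. Uncalled genes near 0 changed sign. Il1b was -0.055 with median-ratio scaling, -0.028 with the ribosomal covariate and -0.047 against WT replicate 3 alone. Il1r2 was -0.067, -0.067 and -0.10 and Tnf -0.049, -0.059 and -0.090 in the same order, and after GC and length removal Il1r2 was -0.031, Tnf -0.050 and Il1rn 0.017. Osm was -0.075 against WT replicate 3 alone, and Ccl3 and Ccl4 were 0.0066 and 0.0047 with quantile normalization. With a library left out, Il1b ranged from -0.015 to 0.050, Il1r2 from -0.028 to 0.060, Tnf from -0.015 to 0.079, Ccl4 from -0.087 to 0.040 and the log2 ratio of Ccl3 to Ccl4 from -0.062 to 0.073. Whether the replicate numbers pair the libraries is not settled. Deviations from the label means correlated at 0.229, -0.0075 and 0.131 for the same number, and at -0.213 to 0.0834 for different numbers. Under the replicate block the adjusted p of Il1rap and Cxcl2 was 0.118 in limma. The 95% intervals of Ccl6 and Osm, each over 0.4 wide on the log2 scale, limit what 3 libraries a label can show.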
